A study of Drosophila melanogaster with 16 samples.

Results

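The midguts of virgin female and virgin male Drosophila melanogaster labelled Myc RNAi were compared with each other, gene by gene. They make up 7 of the 16 poly(A) RNA-seq libraries of a study of how the transcription factor Myc bears on the regions and on the sex bias of the fly intestine. They were chosen by sex and genotype: the 4 female libraries with replicate numbers 9 to 12 and the 3 male libraries with numbers 13 to 15, both of the labelled genotype mex1TS > MycRNAi GD1419. A further male library of this genotype, number 16, was left out because it carried testis transcripts. The 4 female and 4 male control libraries, numbers 1 to 4 and 5 to 8, carried the same driver without the hairpin (w1118; mex1-GAL4 TS/+), and they entered the fit so that the spread between libraries was estimated over 15 libraries. Every group, controls included, therefore carried mex1-GAL4, a driver used to express transgenes in enterocytes, together with the element abbreviated TS. Each library came from 30 dissected and pooled midguts, with 3 or 4 independent samples per sex and genotype according to the study's design text. The hairpin was directed to enterocytes, while the RNA came from whole midguts with their other cells and attached tissue. The labels give neither age nor induction conditions.

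The fly midgut is a tube of absorptive enterocytes, hormone-secreting enteroendocrine cells and stem cells, wrapped in visceral muscle, and it is divided along its length into regions that express different digestive genes. Female and male midguts are known to differ in size, in stem cell activity and in the expression of digestive and metabolic genes. Myc is a transcription factor best known for driving ribosome production and cell growth, and its gene lies on the X chromosome.

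The targeted gene was examined first. Levels here and below are in CPM, the reads of a gene scaled to a common library total after TMM normalization. Myc (FBgn0262656, chromosome X, 3373159 to 3391697, plus strand, build dm6) stood at 83.0, 51.3, 56.5 and 43.3 CPM in females labelled Myc RNAi and at 30.3, 33.0 and 35.4 CPM in males labelled Myc RNAi. Control females had 125, 83.9, 60.0 and 84.1 CPM, and control males had 22.5, 19.7, 25.2 and 33.7 CPM. The Myc RNAi males thus stood above 3 of the 4 control males, so that the transcript in males did not show the reduction that the label implies, and the genotype is used here as labelled. Every Myc RNAi female was above every Myc RNAi male, but the difference of 0.83 ± 0.25 on the log2 scale (SE) did not pass the test (adjusted p = 0.0642). The white gene w, an eye pigment transporter that often marks inserted transgenes, was at 375, 302, 343 and 330 CPM in Myc RNAi females and at 561, 380 and 466 CPM in Myc RNAi males, against 10.6 to 17.4 CPM in control females and 19.6 to 26.5 CPM in control males.

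The sex labels were checked with roX1, a non-coding RNA of the male dosage compensation complex. It was at 0.399, 0.876, 1.88 and 1.32 CPM in Myc RNAi females and at 704, 668 and 772 CPM in Myc RNAi males. All 7 libraries matched their labels on this gene. Among 8 sex determination genes, Sxl, the switch gene of female development, had a log2 difference, females minus males, of 0.51 (adjusted p = 0.0548). The values were 0.76 for tra (adjusted p = 0.0786), -0.71 for dsx (adjusted p = 0.162) and 0.01 for fru (adjusted p = 0.992). None of the 8 was called by edgeR, 3 higher and 1 lower reached an unadjusted p under 0.05, and DESeq2 and limma voom each called 2.

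The female libraries held 24946535, 16630050, 53586401 and 26786569 counts, and the male libraries held 22870888, 18239086 and 25064185. Log2 CPM correlated at 0.981 to 0.992 over the 9 pairs of the same sex and at 0.974 to 0.984 over the 12 pairs of opposite sex, across genes, which are not independent replicates. The first principal component of the 7 libraries carried 41.8% of the variance and put all 4 females on the side opposite to all 3 males. Among genes lower in females, male 14 was the male library nearest to the females in 190 of 298 genes (63.8%). Among the 282 genes higher in females, male 14 was nearest in 95 (33.7%) and male 13 in 121 (42.9%). Levels of gut marker lists were summed per library to describe the cells each pool held. Enteroendocrine markers summed to 593, 627, 571 and 576 CPM in Myc RNAi females and to 950, 618 and 940 CPM in Myc RNAi males, so that male 14 lay among the females while the other males lay above them. Malpighian tubule markers, from the excretory organ attached to the gut, showed the same arrangement of sums, at 3057 to 3439 CPM in Myc RNAi females and at 5419, 3148 and 4955 CPM in Myc RNAi males. Most single tubule markers went the other way: 9 of the 15 tested had a log2 difference, females minus males, above 0, with a median of 0.35, and 0 were called. Visceral muscle markers summed to 3519, 4088, 4304 and 4255 CPM in Myc RNAi females and to 5148, 4729 and 4898 CPM in Myc RNAi males, without overlap. Enterocyte junction and identity genes summed to 11530 to 13310 CPM in Myc RNAi females and to 14070 to 17400 CPM in Myc RNAi males. The ovary list summed to 90.7 to 94.9 CPM in Myc RNAi females and to 95.7 to 103.9 CPM in Myc RNAi males, without overlap and lower in females. Its members did not share that direction: 5 of the 9 tested lay above 0, and the median log2 difference, females minus males, was 0.002. Of the 9, 1 (11.1%) was called, higher in females, and that call was lost without any 1 of the 7 Myc RNAi libraries. The testis list overlapped, at 33.7 to 48.0 CPM in Myc RNAi females and at 39.8 to 48.3 CPM in Myc RNAi males. What these markers contribute to the differences below was not tested, and in pooled tissue fewer cells of a type cannot be told apart from less RNA per cell.

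A gene was called when edgeR's quasi-likelihood test gave it a Benjamini-Hochberg adjusted p under 0.05 over the 9388 genes tested, and differences are on the log2 scale, females minus males. In midguts labelled Myc RNAi, 580 genes (6.18%) differed between females and males. Of these, 282 (3.0%) were higher and 298 (3.17%) were lower in females. Differences were mostly moderate: 130 of the genes higher and 113 of the genes lower in females had an estimated difference beyond 2-fold, and the median size of a called difference was 0.95 among genes higher and 0.80 among genes lower. The female and male libraries did not overlap for 280 of the 282 and 293 of the 298. The calls were made from these same values, so the lack of overlap is no separate support for them. With total counts in place of TMM, which moved the split, 226 were higher and 143 lower. The counts moved with single libraries. They came to 166 higher and 155 lower without female 9, 152 and 146 without female 11, 113 and 95 without male 13, 145 and 232 without male 14, and 88 and 101 without male 15, against 282 and 298 with all. In total, 70 genes higher (24.8%) and 62 genes lower (20.8%) in females were called under each of the alternatives tried, leave-outs included and the 2-fold threshold aside. For a gene described below by its value in every library, a sex difference that lost its call under one of them is given as such. The counts of list members are read against the 3.0% higher and 3.17% lower of all genes, except in the 2 lists composed after values were seen.

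**Figure D1:**
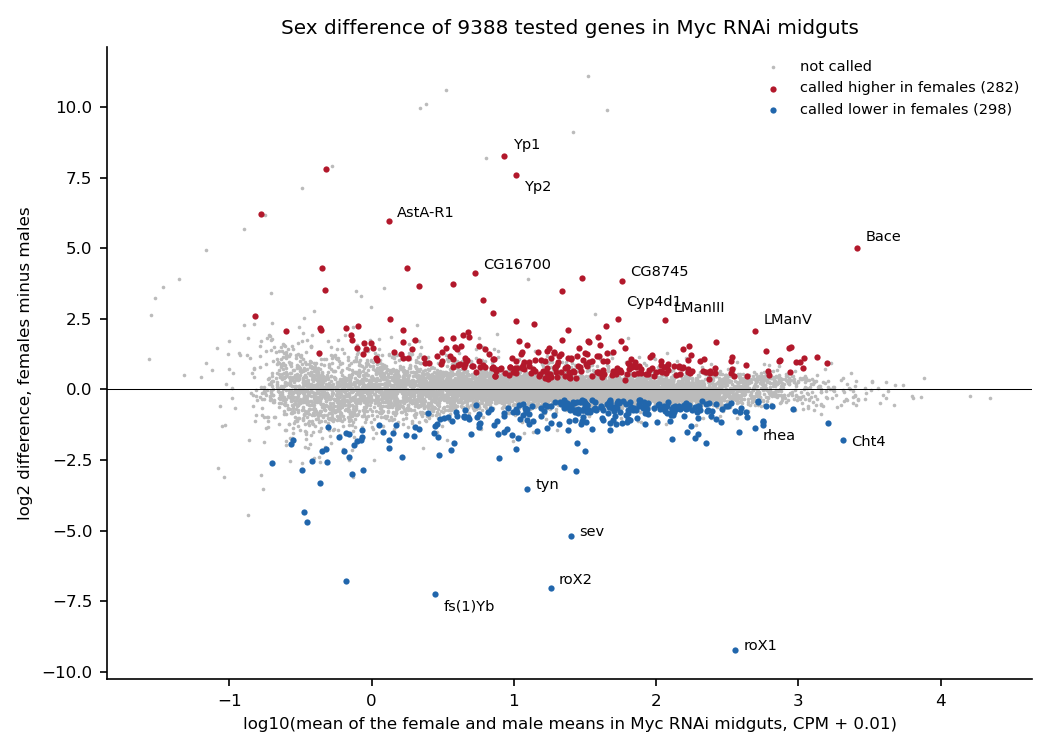
Each point is 1 of the 9388 genes tested in Myc RNAi midguts, with the log10 of its mean CPM plus 0.01 (mean of the female and the male mean) on the x axis and the log2 difference, females minus males, on the y axis. Red points are the 282 genes called higher in females and blue points the 298 called lower. Bace stands out among the abundant genes at 5.02, and roX1 lies lowest among the called genes at -9.24.

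Among genes higher in females, the yolk protein genes had some of the largest differences. Yolk proteins are secreted by the female fat body and by ovarian follicle cells and taken up by oocytes. Yp1 was at 15.8, 3.85, 31.1 and 17.6 CPM in Myc RNAi females and at 0.0387, 0.0443 and 0.0673 CPM in Myc RNAi males, a log2 difference of 8.28 ± 1.29 (SE, adjusted p = 0.00186). The call on Yp1 was lost in limma voom (adjusted p = 0.118). Yp2 was at 12.5, 9.49, 42.7 and 17.4 CPM in Myc RNAi females and at 0.116, 0 and 0.168 CPM in Myc RNAi males (log2 difference 7.61). Yp3 was at 23.2, 29.4, 73.2 and 33.9 CPM in Myc RNAi females and at 3.68, 4.83 and 2.22 CPM in Myc RNAi males (3.50 ± 0.57, adjusted p = 0.00242). Female 11 had the highest value of all 3 genes, and no male reached the level of any female. The other fat body markers moved with that library: their sum was 37.7, 44.7, 142.5 and 69.1 CPM in Myc RNAi females and 50.7, 52.3 and 37.4 CPM in Myc RNAi males. Without female 11, the log2 differences were 7.81, 6.95 and 3.02 for Yp1, Yp2 and Yp3, and all 3 remained called.

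Digestive and lysosomal hydrolases included large differences at high expression. Bace (chromosome 2L, 8494893 to 8496307, minus strand), an aspartic protease gene named for its similarity to beta-secretase, was at 5091, 4994, 4687 and 5247 CPM in Myc RNAi females and at 176, 209 and 78.1 CPM in Myc RNAi males. The 4 females were close to each other and far above every male, and the means of 5005 ± 236 and 154 ± 67.9 CPM (SD, n = 4 and 3) gave a fitted log2 difference of 5.02 ± 0.45 (SE, adjusted p = 1.17e-05). Its coordinates lie within the span of the hormone gene Dh31 on the same strand, whose own difference was -0.22 (adjusted p = 0.42). In controls the difference had the same direction but was smaller, with 15360 ± 7106 CPM in females and 4582 ± 1812 CPM in males (SD, n = 4 each; log2 difference 1.75, adjusted p = 0.00421). The difference between the genotypes in the sex effect was itself tested as an interaction, and for Bace it was 3.28 (adjusted p = 0.00508).

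All 6 tested LMan genes, which encode alpha-mannosidases that trim mannose from glycans, were higher in Myc RNAi females, with a median log2 difference of 1.80 against 0.00 over all genes tested. LManIII to LManVI lie side by side on chromosome 2L between 8765273 and 8781252, and LManI and LManII lie together at 10452677 to 10462472, so that reads from similar copies could have been shared between them by the authors' counting. LManV had 518, 1021, 741 and 934 CPM in Myc RNAi females and 210, 200 and 160 CPM in Myc RNAi males (log2 difference 2.08 ± 0.25, adjusted p = 0.000278). LManVI had 901, 1570, 1237 and 1535 CPM in Myc RNAi females and 481, 461 and 434 CPM in Myc RNAi males (1.51 ± 0.25, adjusted p = 0.00257). For both genes female 9 was the lowest female and still above every male. LManIII differed by 2.45 (adjusted p = 0.00109), LManI by 0.90 (adjusted p = 0.00589), LManIV by 2.70 (adjusted p = 0.0107) and LManII by 0.82 (adjusted p = 0.0135). The call on LManIV was lost without male 15 (adjusted p = 0.0737) and in limma voom (0.0906). The call on LManII was lost without male 13 (adjusted p = 0.0619), male 14 (0.0537) or male 15 (0.0599). In control midguts none of the 6 was higher in females and 3 were lower, with a median of -0.77. LManVI, for example, averaged 4149 ± 998 CPM in control females and 8766 ± 2286 CPM in control males (SD, n = 4 each). The interaction was called for all 6 genes, from 1.29 for LManII to 4.52 for LManIV. That of LManII was not called without male 13 (0.0513) or male 15 (0.0548), and those of the other 5 were called under each alternative.

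Of 29 digestive serine proteases 2 (6.9%) were higher and 1 (3.45%) was lower in Myc RNAi females. The higher count was 1 without female 11, female 12, male 13, male 14, male 15, control female 1, control male 6 or control male 7, and the lower count was 0 without any 1 of the 4 Myc RNAi females, male 13, male 15, control female 3, control male 6 or control male 7. Ser6, a serine protease gene, was at 49.2, 50.3, 56.6 and 63.6 CPM in Myc RNAi females and at 28.3, 20.3 and 24.2 CPM in Myc RNAi males (log2 difference 1.18, adjusted p = 0.00107). CG32379, listed among carboxypeptidases, differed by 1.85 (adjusted p = 0.00106). Of 15 carboxypeptidases 2 (13.3%) were higher in Myc RNAi females, a count that was 1 without female 11, female 12, male 13, male 14 or male 15, 4 without control female 2, 4 with DESeq2 and 6 in the fit to the 7 libraries. Of 4 lysozyme genes, which encode enzymes that cleave bacterial cell walls, LysE (3.67, adjusted p = 0.0262) and LysP (3.73, adjusted p = 0.0436) were higher in Myc RNAi females. Neither was called without female 11, male 13 or male 15, and 1 of them was called without female 9, female 10, female 12 or male 14, in limma voom and with total counts. Of 14 lipase genes 2 (14.3%) were higher, Lip3 (1.33) and CG17192 (3.95). That count was 0 in limma voom and without female 11, female 12, male 13, male 14 or male 15, and 1 with total counts, with median-of-ratios size factors, with male 16 kept, or without female 10, control female 1 or control males 6, 7 or 8. In the starch and sugar digestion list of 16 genes, which holds the maltases, edgeR called no sex difference in Myc RNAi midguts. There 1 gene higher and 1 lower reached an unadjusted p under 0.05, DESeq2 called 1 and limma voom called 0, and 1 was called with total counts. In controls 9 of these 16 were lower in females, with a median of -0.74 against -0.07 in Myc RNAi midguts. The interaction was called for 5 of them (Mal-A3, Mal-A4, Mal-A7, Mal-A8 and Gal, named after their values were seen). That count was 3 without female 10 or 11, 2 without female 9, female 12, male 13, control female 1, control female 4 or control male 7, and 0 without male 14, male 15 or control male 6, and it was 3 without a filter on low counts.

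**Figure D2:**
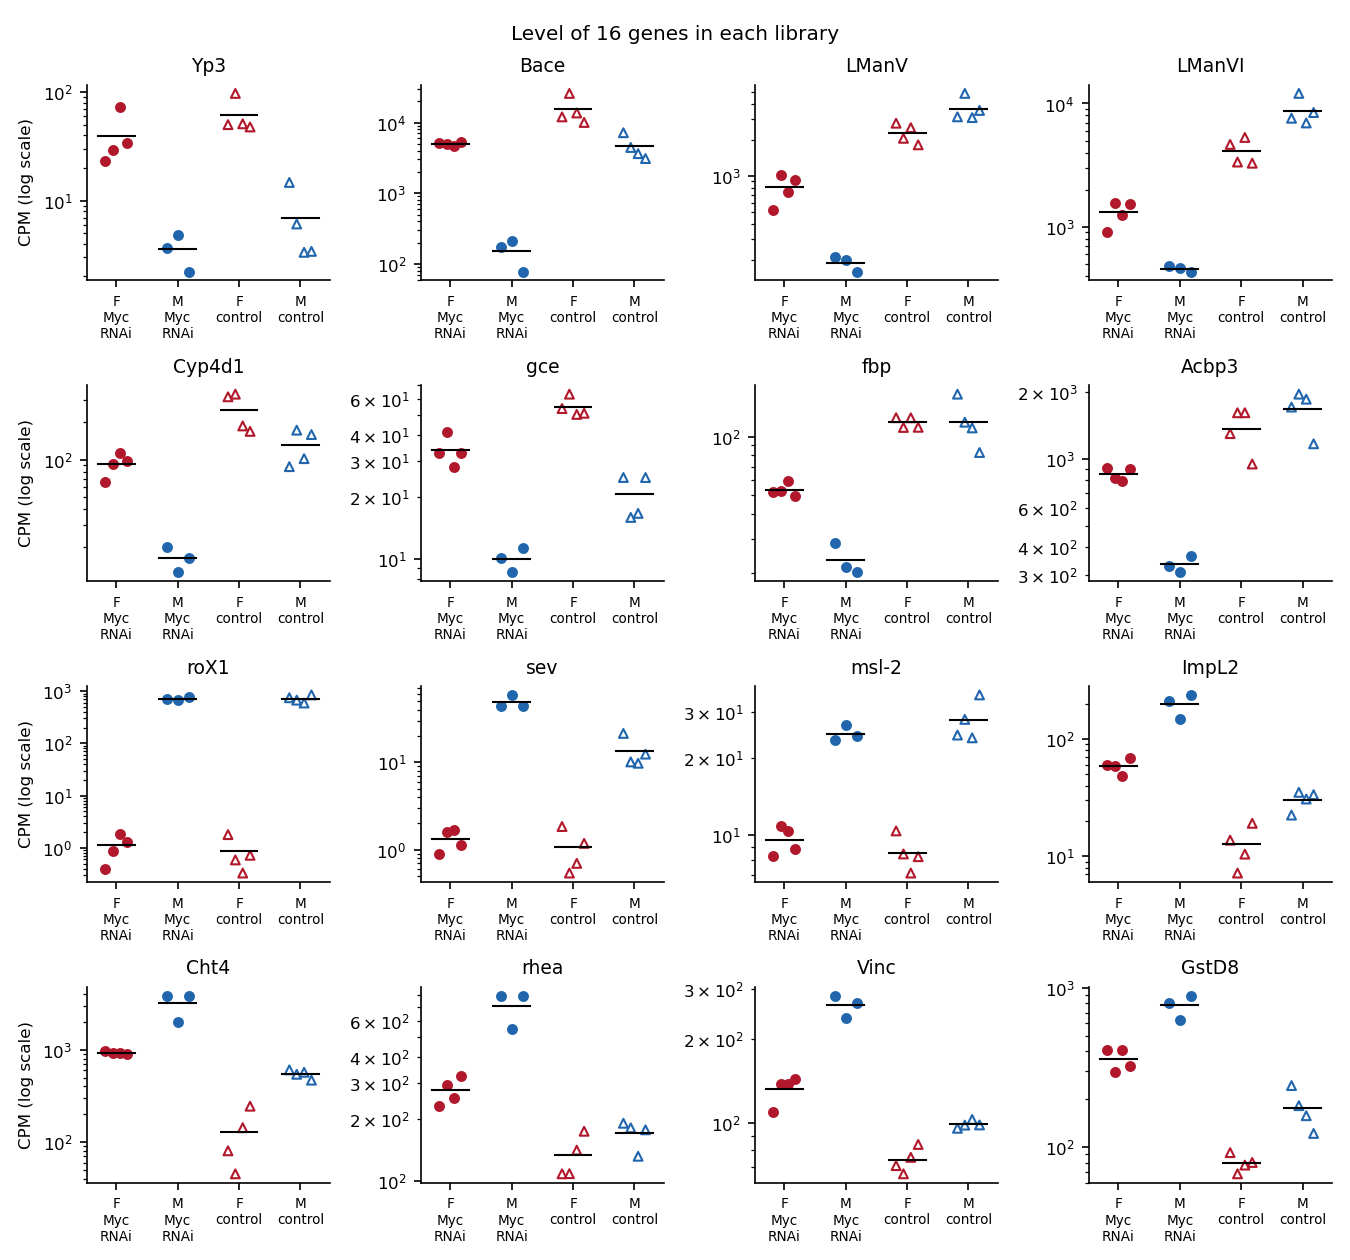
CPM in each library (log scale) of 16 genes, with female Myc RNAi, male Myc RNAi, female control and male control libraries placed left to right. Each symbol is 1 library and the bar is the group mean. Bace, LManV, LManVI and Cyp4d1 stand higher in Myc RNAi females than in Myc RNAi males, whereas roX1, sev, msl-2, ImpL2, Cht4, rhea, Vinc and GstD8 stand lower.

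Detoxification genes were split by family. Cytochrome P450 enzymes oxidise hormones, fatty acids and foreign compounds, and of 68 tested genes 10 were higher and 1 was lower in Myc RNAi females, with 8 to 12 higher when single libraries were left out and 17 in the fit to the 7 Myc RNAi libraries alone. The share higher was 14.7%. Cyp4d1 was at 65.9, 91.5, 113 and 96.8 CPM in Myc RNAi females and at 19.8, 12.5 and 16.4 CPM in Myc RNAi males (log2 difference 2.50 ± 0.32, adjusted p = 0.000369). No male came near the lowest female. Other members that were called under each alternative and higher in females included Cyp4ae1 (1.69), Cyp4ad1 (1.24), Cyp6d5 (1.13) and Cyp4ac1 (1.11). Cyp4ac1 was at 31.0, 31.8, 37.7 and 31.5 CPM in Myc RNAi females and at 12.4, 17.8 and 15.9 CPM in Myc RNAi males, whereas in controls it differed by 0.09, and its interaction was 1.02 (adjusted p = 0.0163), which was not called without male 13 (0.0581), without male 15 (0.0559) or with total counts (0.121). Cyp6d2 went the other way, at 20.4, 14.5, 19.2 and 14.7 CPM in Myc RNAi females and at 40.9, 32.8 and 35.0 CPM in Myc RNAi males (log2 difference -1.07, adjusted p = 0.00281).

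UDP-glycosyltransferases couple sugars to small molecules, and 6 of 29 (20.7%) were higher in Myc RNAi females, a count that was 2 without female 9, male 13 or male 15 and 3 with total counts. Ugt35C1 was at 249, 245, 278 and 209 CPM in Myc RNAi females and at 65.9, 134 and 113 CPM in Myc RNAi males (log2 difference 1.23, adjusted p = 0.00298), with an interaction of 1.52 (adjusted p = 0.013). Ugt302E1 was at 59.0, 47.2, 47.0 and 51.4 CPM in Myc RNAi females and at 13.8, 20.7 and 13.2 CPM in Myc RNAi males (1.69, adjusted p = 0.00447). Glutathione transferases, which conjugate glutathione to reactive compounds, were called in both directions, with 2 higher and 4 lower of 33. The higher count was 0 without male 13 and 1 without female 9, female 11, male 14 or male 15, and the lower count was 2 without male 15. With total counts or with male 16 kept in the fit, the higher count was 1. GstD8 was at 406, 296, 410 and 325 CPM in Myc RNAi females and at 803, 630 and 894 CPM in Myc RNAi males (-1.11, adjusted p = 0.00553). GstD5 was at 80.4, 60.6, 49.1 and 63.3 CPM in Myc RNAi females and at 145, 152 and 125 CPM in Myc RNAi males (-1.15, adjusted p = 0.00118). In controls 19 of the 33 were lower in females, with a median of -0.70 against -0.02 in Myc RNAi midguts. The interaction was called for 3 of the 33, a count that ranged from 0 to 15 over the alternatives. The GstD genes lie in a cluster of similar copies, which the counting could have split.

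Several metabolic and transport genes were higher in Myc RNAi females. Of the 22 glycolysis and trehalose genes 3 (13.6%) were higher, a count that was 1 without female 9, female 11, female 12, male 13, male 14 or male 15 and with male 16 kept, and 5 in the fit to the 7 libraries. One of them, fbp, encodes fructose-1,6-bisphosphatase, an enzyme of gluconeogenesis. It was at 51.9, 52.8, 59.3 and 49.6 CPM in Myc RNAi females and at 28.7, 21.4 and 20.2 CPM in Myc RNAi males (log2 difference 1.19 ± 0.19, adjusted p = 0.00231). The sexes did not overlap there, while in controls the difference was -0.01 and the interaction 1.20 (adjusted p = 0.0265). The interaction was not called without female 9 (0.0516), female 11 (0.0504), male 14 (0.0805), male 15 (0.109), control female 4 (0.0566) or control male 6 (0.0596), or with male 16 kept (0.118). Arcus (acs), an amino acid transporter gene, was at 87.0, 110, 75.3 and 80.9 CPM in Myc RNAi females and at 27.0, 24.7 and 43.4 CPM in Myc RNAi males (1.48, adjusted p = 0.00455). Its interaction of 1.79 (adjusted p = 0.0214) was not called without male 13 (0.0681) or male 14 (0.0592). Slimfast (slif), a cationic amino acid transporter gene, differed by 1.72 (adjusted p = 0.00985), a call lost without male 13 (0.0521) or male 15 (0.0605). Acbp3 and Sodh1 were chosen after their values were seen. Acbp3, an acyl-CoA binding protein gene, was at 912, 816, 796 and 897 CPM in Myc RNAi females and at 329, 308 and 366 CPM in Myc RNAi males (1.36 ± 0.20, adjusted p = 0.00146). Its values lay within narrow ranges in both sexes, and the interaction was 1.65 (adjusted p = 0.00638), or 0.109 as an adjusted p with male 16 kept in the fit. Sodh1, a sorbitol dehydrogenase gene, was at 42.2, 45.9, 50.01 and 40.8 CPM in Myc RNAi females and at 25.2, 13.4 and 16.4 CPM in Myc RNAi males, with an interaction of 1.84 (adjusted p = 0.00468, or 0.0519 with male 16 kept).

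Regional genes and the proton pump of the acid region were examined next. The homeotic gene labial (lab), which specifies the acid-secreting copper cells of the middle midgut, was the 1 of 22 regional transcription factor genes called (4.55%). It was at 23.7, 25.4, 21.9 and 25.0 CPM in Myc RNAi females and at 17.9, 14.4 and 14.4 CPM in Myc RNAi males (log2 difference 0.62, adjusted p = 0.006). The V-ATPase is the proton pump that acidifies lysosomes and the gut lumen, and 4 of its 23 subunit genes (17.4%) were higher in Myc RNAi females. That count was 2 without female 9, female 11 or male 14 and 1 without male 13 or male 15, and 7 with DESeq2 and 9 in the fit to the 7 libraries. Vha100-4 was at 157, 190, 225 and 197 CPM in Myc RNAi females and at 118, 110 and 112 CPM in Myc RNAi males (0.76, adjusted p = 0.00735). Both genes had every female above every male.

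Germ cell-expressed (gce), which encodes a receptor of juvenile hormone, was at 32.9, 41.7, 28.0 and 32.9 CPM in Myc RNAi females and at 10.1, 8.59 and 11.3 CPM in Myc RNAi males (log2 difference 1.76 ± 0.19, adjusted p = 0.0001). It was higher in control females as well. Idgf4, a chitinase-like secreted factor gene, was at 44.6, 73.8, 108 and 67.4 CPM in Myc RNAi females and at 21.8, 11.1 and 13.9 CPM in Myc RNAi males (2.24, adjusted p = 0.00281). AstA-R1, a receptor gene of the peptide allatostatin A chosen after its values were seen, was at 2.33, 2.92, 2.64 and 2.48 CPM in Myc RNAi females and at 0, 0 and 0.101 CPM in Myc RNAi males. It rested on 373 reads in females and 3 in males, a ratio of 67.2 after scaling by the TMM-normalized library totals. The 95% counting interval of 22.8 to 328 covers counting error only. Of the genes known only by number, CG16700 was at 14.4, 7.01, 9.82 and 8.97 CPM in Myc RNAi females and at 0.542, 0.708 and 0.471 CPM in Myc RNAi males (4.14, adjusted p = 0.00074). CG8745 was at 191, 54.9, 114 and 68.3 CPM in Myc RNAi females and at 2.40, 7.57 and 12.1 CPM in Myc RNAi males (3.86, adjusted p = 0.00122).

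Genes lower in females were led by the male dosage compensation system, which raises transcription from the single male X. Of 8 genes on its list, 4 were lower in Myc RNAi females, and 4 were lower in control females. The roX1 values given above corresponded to a log2 difference of -9.24 ± 0.48 (SE, adjusted p = 3.26e-08). The second non-coding RNA, roX2, was at 0.432, 0.0974, 0.191 and 0.355 CPM in Myc RNAi females and at 36.8, 30.7 and 40.3 CPM in Myc RNAi males (-7.04, adjusted p = 1.07e-07). The complex's limiting protein gene, msl-2, was at 8.30, 10.9, 10.4 and 8.80 CPM in Myc RNAi females and at 23.3, 26.8 and 24.2 CPM in Myc RNAi males (-1.37 ± 0.15, adjusted p = 0.000145).

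A trio of X-linked genes was far lower in Myc RNAi females. The receptor tyrosine kinase gene sevenless (sev), known from photoreceptor specification, was at 0.897, 1.61, 1.70 and 1.13 CPM in Myc RNAi females and at 44.4, 59.0 and 44.4 CPM in Myc RNAi males (log2 difference -5.19 ± 0.35, adjusted p = 3.33e-07). In controls it was at 0.542 to 1.85 CPM in females and at 9.76 to 21.4 CPM in males. The gene trynity (tyn), which encodes a zona pellucida domain protein, was at 1.63, 1.85, 1.88 and 2.55 CPM in Myc RNAi females and at 23.8, 22.0 and 22.4 CPM in Myc RNAi males (-3.52). The piRNA pathway gene fs(1)Yb, known from the somatic cells of the ovary, was at 0, 0, 0.0796 and 0 CPM in Myc RNAi females and at 4.84, 6.51 and 5.38 CPM in Myc RNAi males, with 5 and 432 reads (-7.25, adjusted p = 1.91e-06).

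Among secreted factors, ImpL2, an antagonist of insulin signalling, was at 60.5, 58.6, 48.5 and 68.2 CPM in Myc RNAi females and at 211, 147 and 237 CPM in Myc RNAi males (log2 difference -1.75 ± 0.26, adjusted p = 0.00121). Control females averaged 12.6 ± 5.07 CPM and control males 30.4 ± 5.62 CPM (SD, n = 4 each), and the interaction was not called (-0.47, adjusted p = 0.651). Cht4, a chitinase gene, was at 962, 931, 925 and 898 CPM in Myc RNAi females and at 3842, 2004 and 3783 CPM in Myc RNAi males (-1.79 ± 0.39, adjusted p = 0.0135). Male 14 stood lowest among the males for both genes. The call on Cht4 was lost without male 13 (adjusted p = 0.0662), without male 15 (0.0657) and in limma voom (0.0602). Vein (vn), a ligand of the EGF receptor, was at 3.52, 4.72, 3.07 and 4.22 CPM in Myc RNAi females and at 10.8, 9.48 and 14.3 CPM in Myc RNAi males (-1.58, adjusted p = 0.00855), a call lost without male 15 (0.0582). In the list of 28 JAK-STAT and EGFR signals 5 genes (17.9%) were lower in Myc RNAi females. The 1 called higher was dpp (0.48), which the list holds although it encodes a ligand of neither pathway. The lower count was 3 without female 10 or 11, 2 without female 9, female 12, male 13 or male 14, 1 without male 15, with total counts or with male 16 kept, and 9 in the fit to the 7 libraries. The call on dpp was lost in 14 of 24 alternatives.

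Of 21 enteroendocrine genes 2 (9.52%) were lower in Myc RNAi females, the peptide hormone genes AstC (-0.83) and CCHa2 (-1.10), neither of which was called without male 13 or male 15; AstC was also not called without female 9 or female 11. CCHa2 was at 85.2, 86.4, 68.9 and 75.8 CPM in Myc RNAi females and at 213, 94.0 and 203 CPM in Myc RNAi males. Male 14 was close to the females, as in the summed enteroendocrine markers. Of the 21 genes, 1 was called without female 9 or female 11, and 5 were called without male 14 or control female 2, with DESeq2 and in the fit to the 7 libraries. Naam, which encodes a nicotinamidase, was at 13.1, 13.1, 8.33 and 13 CPM in Myc RNAi females and at 41.7, 47.8 and 42.0 CPM in Myc RNAi males (-1.89, adjusted p = 0.00229). CG3568 was at 7.21, 5.31, 6.40 and 7.16 CPM in Myc RNAi females and at 50.6, 43.5 and 51.5 CPM in Myc RNAi males (-2.89, adjusted p = 6.61e-08). AttD was the 1 of 20 antimicrobial peptide genes called lower in Myc RNAi females (-2.10, adjusted p = 0.0181), a call lost without female 11 (0.0618) or male 15 (0.136). In controls 9 of the 20 were called lower in females. The list's median was -0.94 in Myc RNAi midguts and -1.49 in controls, and the interaction was called for 0 of the 20.

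Several genes of integrin adhesion were lower in Myc RNAi females. Integrins anchor cells to the matrix and are tied to actin through talin, vinculin, filamin and their partners. The integrin adhesion list and the Hippo pathway list were composed after values were seen. Their shares of called members depend in part on that choice and are not read against those of all genes. Of 35 adhesion genes, 14 (40.0%) were lower and 1, the matrix gene Ndg, was higher in Myc RNAi females, with a median of -0.43. The call on Ndg was lost without female 11 (adjusted p = 0.132), female 12 (0.0725), male 13 (0.108), male 14 (0.0882), male 15 (0.202), control male 6 (0.0557) or control male 7 (0.051), and in limma voom (0.057). The count of lower genes was 8 without female 9, 10 or 12, 9 without female 11 and 5 without male 13 or male 15, and it was 7 with total counts, 9 without a filter on low counts and 6 with male 16 kept in the fit. Talin (rhea) was at 231, 294, 254 and 325 CPM in Myc RNAi females and at 794, 548 and 791 CPM in Myc RNAi males (log2 difference -1.36 ± 0.20, adjusted p = 0.00118). Vinculin (Vinc) was at 109, 139, 137 and 144 CPM in Myc RNAi females and at 285, 238 and 269 CPM in Myc RNAi males (-0.996 ± 0.12, adjusted p = 0.000311). Filamin (cher) was at 61.3, 97.6, 88.3 and 99.2 CPM in Myc RNAi females and at 312, 170 and 250 CPM in Myc RNAi males (-1.50, adjusted p = 0.00118). Every female stood below every male for the 3 genes, with male 14 again the lowest male. Zasp52, which encodes a PDZ and LIM domain protein of muscle and of integrin attachments, differed by -1.51 (adjusted p = 0.0028), and the kindlin gene Fit1 by -0.78 (adjusted p = 0.00301).

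The integrin receptor genes mys and mew differed by less, at -0.70 and -0.64. The call on mew was lost without male 13 (0.0676) or male 15 (0.0638), with total counts (0.0923) and with male 16 kept (0.0621). The call on mys was lost in 14 of 24 alternatives, among them the fits without any 1 of the 7 Myc RNAi libraries, limma voom (0.0813) and total counts (0.166). Visceral muscle markers were lower in females without overlap, as given above, but of 22 markers on that list 1 was called, Zasp52. The part of muscle in the adhesion result was not tested. In controls 6 of the 35 adhesion genes were lower in females, with a median of -0.21, and edgeR called the interaction for 0 of the 35, with 8 at an unadjusted p under 0.05, 2 called by DESeq2 and 0 by limma voom. Of 23 genes on the Hippo pathway list, 6 (26.1%) were lower in Myc RNAi females. That count was 3 without female 11, 2 without male 13 and 1 without male 15, and 1 with total counts. Expanded (ex) was at 33.0, 29.7, 26.7 and 38.2 CPM in Myc RNAi females and at 70.5, 54.1 and 77.4 CPM in Myc RNAi males (-1.08, adjusted p = 0.006). Enabled (ena), an actin regulator gene chosen after its values were seen, was at 34.1, 47.9, 36.5 and 47.5 CPM in Myc RNAi females and at 97.0, 70.1 and 88.7 CPM in Myc RNAi males (-1.04, adjusted p = 0.00664).

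Lists of the cytosolic translation machinery, a known target of Myc, held no call between females and males labelled Myc RNAi. Of 82 cytosolic ribosomal protein genes edgeR called 0, with 9 higher in females at an unadjusted p under 0.05, and DESeq2 and limma voom also called 0. A fit to the 7 Myc RNAi libraries alone called 13. The estimates lay above 0 for 81 of the 82, with a median of 0.38. Of 47 ribosome biogenesis genes 0 were called, with 3 higher and 4 lower at an unadjusted p under 0.05 and 0 in DESeq2 and limma voom, and the median was -0.13. Of 45 translation factor genes 0 were called, with 4 higher and 1 lower at an unadjusted p under 0.05 and 0 in the other tools.

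The sex difference in control midguts was 1292 genes (13.8%), of which 629 (6.7%) were higher and 663 (7.06%) lower in females. There 70 of the 82 ribosomal protein genes, 29 of the 47 ribosome biogenesis genes and 17 of the 45 translation factor genes were higher in females, with medians of 0.84, 0.60 and 0.40. In the test of the difference between genotypes, the median interaction was -0.65 for ribosome biogenesis, -0.46 for ribosomal protein and -0.30 for translation factor genes, and the lists were not tested against each other. Of the ribosome biogenesis genes 11 had a lower sex difference in Myc RNAi midguts than in controls, among them Nop56, a core protein of small nucleolar ribonucleoproteins (-1.07), and Polr1B, a subunit of RNA polymerase I (-0.95), both chosen after their values were seen. The count was 7 without female 9, female 10 or control female 1, 6 without female 12, male 14 or control male 6, and 4 without male 13 or male 15. It was 3 with total counts, 7 with male 16 kept and 17 with DESeq2. Of the ribosomal protein genes the interaction was called for 0 by edgeR, 4 had an unadjusted p under 0.05, and DESeq2 and limma voom called 0.

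**Figure D3:**
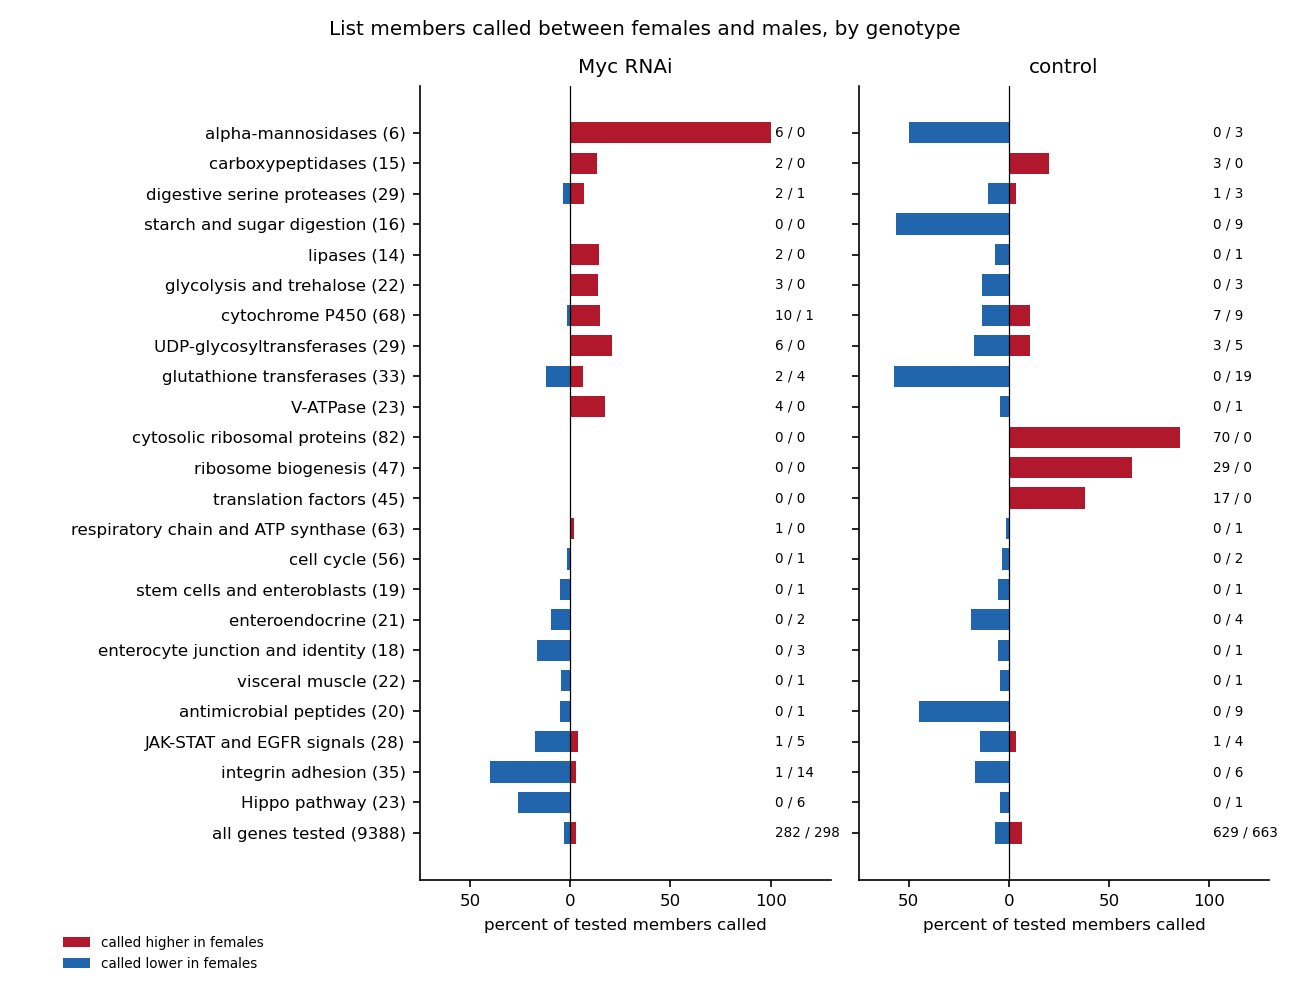
Percent of the tested members of each list called between females and males, in Myc RNAi midguts (left) and control midguts (right), with red bars to the right for members higher and blue bars to the left for members lower in females. Numbers at the right give the counts higher / lower, and the number in brackets is the members tested. The alpha-mannosidases were higher in Myc RNAi females in 6 of 6. The ribosomal protein genes were called in control midguts (70 of 82) and not in Myc RNAi midguts. There 81 of the 82 estimates still lay above 0, and the interaction was called for 0 of the 82.

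Over all genes, 247 were called between the sexes in both genotypes, and 226 of these had the same direction. Genes higher in females in both were 116, which is 41.1% of those of Myc RNAi midguts and 18.4% of those of controls. Genes lower in females in both were 110, or 36.9% and 16.6%. The other 333 genes called in Myc RNAi midguts were not called in controls, but the interaction was called for 29 of them, so that for the rest a difference between the genotypes was not shown. The same holds for the 1045 genes called in controls alone, of which 79 had a called interaction. Across the 9388 genes the 2 sets of log2 differences, which share no library, correlated at r = 0.434 (rho = 0.416) and had the same sign in 66.2%.

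The interaction was called for 131 genes (1.4%), with 98 more positive and 33 more negative in Myc RNAi midguts. The count moved to 77 without female 9, 87 without female 12, 48 without male 13, 77 without male 14, 40 without male 15 and 62 without control male 6. Opposite directions, each called in its own genotype, were found for 21 genes. Of these 19 were higher in Myc RNAi females and lower in control females, LManI, LManIV, LManVI and Akr1B among them. Akr1B, an aldo-keto reductase gene chosen after its values were seen, was at 488, 422, 407 and 377 CPM in Myc RNAi females and at 269, 268 and 241 CPM in Myc RNAi males, against 386 to 528 CPM in control females and 703 to 1142 CPM in control males. Its interaction was 1.75 (adjusted p = 0.00304) and was called under each alternative. Its sex difference within Myc RNAi midguts of 0.71 (adjusted p = 0.0216) was not called without female 9 (0.065), male 13 (0.0786), male 14 (0.0554) or male 15 (0.124), or with male 16 kept (0.0787).

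Only CG6296 and gol went the other way of the 21. CG6296 was at 6.41, 7.21, 17.6 and 14.2 CPM in Myc RNAi females and at 69.6, 38.7 and 46.3 CPM in Myc RNAi males, while control females averaged 120 ± 33.3 CPM and control males 48.5 ± 18.6 CPM (SD, n = 4 each). Its interaction was -3.47 (adjusted p = 0.00344). Goliath (gol), a ubiquitin ligase gene, was at 20.4, 24, 15.6 and 23 CPM in Myc RNAi females and at 50.4, 28.6 and 44.0 CPM in Myc RNAi males, with an interaction of -1.61 (adjusted p = 0.00508). CG31454 did not differ by sex in Myc RNAi midguts beyond the spread (0.01) but was higher in control females (1.69), an interaction of -1.68 (adjusted p = 0.00536).

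**Figure D4:**
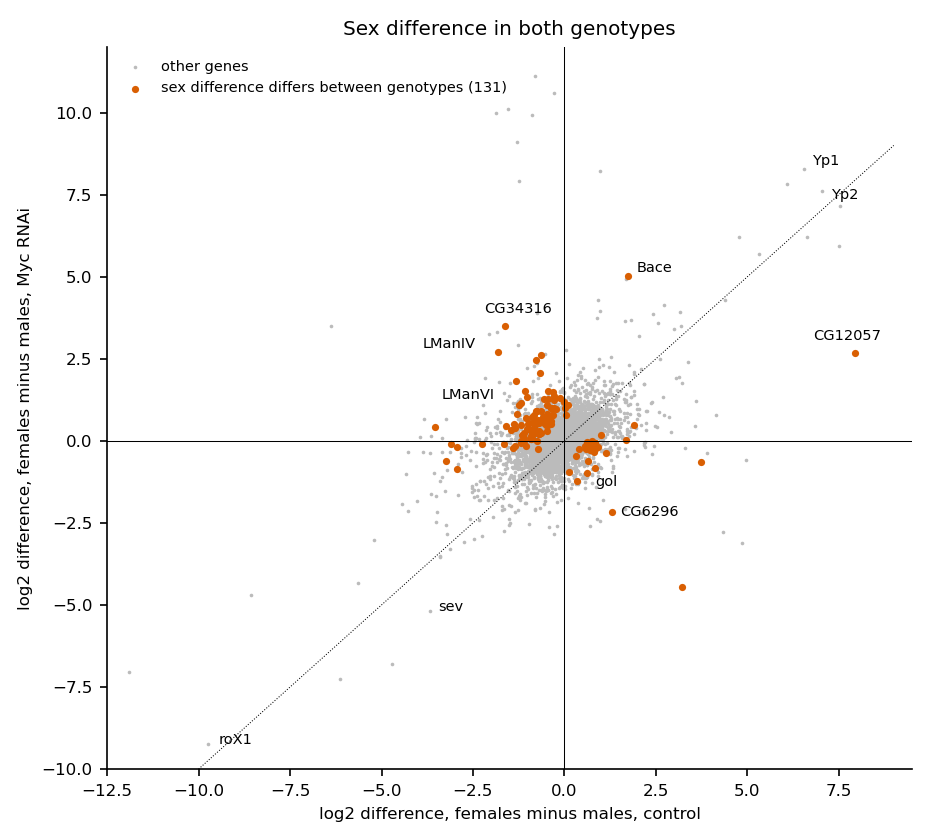
Each point is 1 tested gene, with the log2 difference, females minus males, in control midguts on the x axis and in Myc RNAi midguts on the y axis; the dotted line marks equal values. Orange points are the 131 genes with a called interaction. LManIV, LManVI and CG34316 lie in the quadrant of genes higher in Myc RNAi females and lower in control females, and CG6296 and gol lie in the opposite quadrant.

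By chromosome, 174 of the 1557 tested X-linked genes (11.2%) and 406 of the 7802 autosomal genes (5.2%) differed between Myc RNAi females and males. The X-linked calls were evenly divided, with 87 higher and 87 lower in females, and the median difference of X-linked genes was -0.04. In controls the shares were 19.1% of X-linked and 12.7% of autosomal genes. The X-linked share was above the autosomal share under each alternative. Without single libraries it ranged from 4.3% to 13.7%, against 1.55% to 6.89% for autosomes, and it was 6.57% and 2.82% without female 9, 6.66% and 2.52% without female 11, 4.95% and 1.67% without male 13, 6.94% and 3.42% without male 14, and 4.3% and 1.55% without male 15.

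**Figure D5:**
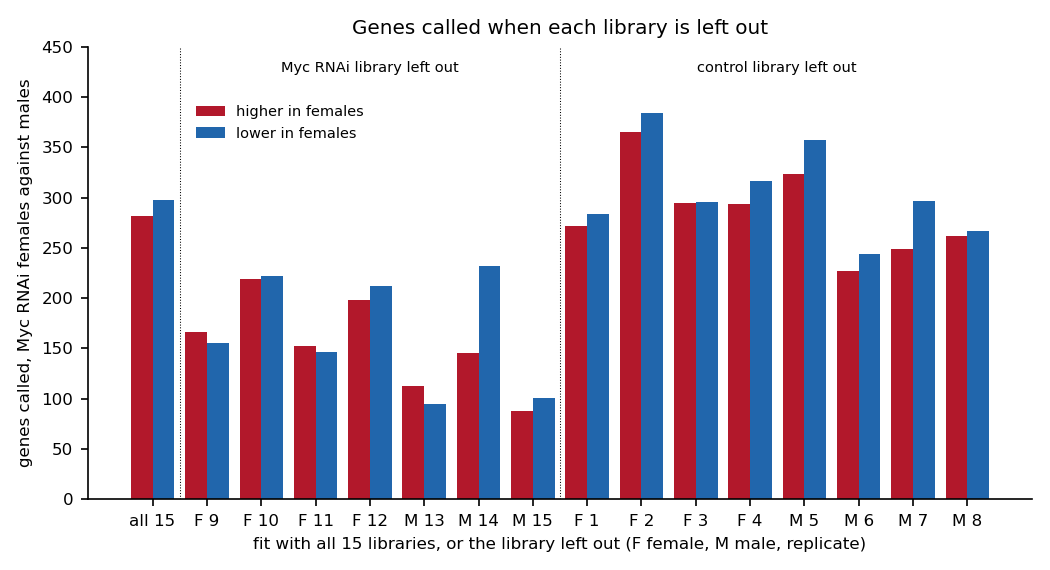
Number of genes called higher (red) and lower (blue) in Myc RNAi females than in Myc RNAi males with all 15 libraries and with each library left out in turn. The counts fall to 88 and 101 without male 15 and come to 365 and 384 without control female 2.

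Lists of cell type markers were also compared. Of 18 enterocyte junction and identity genes 3 (16.7%) were lower in Myc RNAi females, namely the myosin gene Myo31DF (-0.41), the septate junction gene Fas3 (-0.74) and the transcriptional repressor gene brk (-0.71), beside the summed level given above, which was lower in Myc RNAi females without overlap. That count was 0 without female 9, female 11, male 13 or male 15, 1 without female 10 or male 14, and 5 without control female 2. It was 0 with total counts, 1 with male 16 kept and 5 with DESeq2 and in the fit to the 7 libraries. The call on Myo31DF was lost in 18 of 24 alternatives, among them autosomal TMM (0.0504) and limma voom (0.055). Of 9 genes of the air-supplying tubes, 3 (33.3%) were higher in Myc RNAi females (verm, Gasp and serp), and their summed level was 41.4, 46.01, 47.9 and 42.1 CPM in Myc RNAi females and 34.8, 33.9 and 32.8 CPM in Myc RNAi males, without overlap. Not all members shared that direction: 6 of the 9 tested had a log2 difference, females minus males, above 0, with a median of 0.63. None of the 9 was called without male 13, and 1 was without female 9, female 11, male 14 or male 15. Neither the sums of hemocyte markers (217 to 284 CPM in Myc RNAi females and 217 to 228 CPM in Myc RNAi males) nor those of hindgut markers (71.3 to 96.3 and 73.0 to 74.5 CPM) separated the sexes.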

How the data were processed

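Poly(A) RNA of whole midguts was extracted with RNeasy Mini columns and made into NEBNext Ultra II Directional libraries, per the labels' protocols. The authors deposited 1 table of whole-number read counts per gene for all 16 libraries. Per the submitters' processing notes, TopHat2 2.0.11, featureCounts and the dm6 genome were used; how featureCounts treated strand and multiply mapped reads, and with which gene models, is not given in the sources used here. All 16 columns were matched to samples through the labels. Of 16680 gene names, 12504 matched a current FlyBase symbol and 4032 a single synonym in the Ensembl BDGP6.54 annotation, which supplied coordinates, counted from 1 on the same sequence as dm6. No sequence is printed.

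The deposited counts of 15 libraries were fitted with edgeR 4.0.16 (R 4.3.3) with 1 mean per sex and genotype, TMM normalization and its default expression filter, which left 9388 genes. The quasi-likelihood test gave females minus males in Myc RNAi midguts, the same in controls, and the difference between these 2 (the interaction), with p-values adjusted by Benjamini-Hochberg over all genes tested. SEs were taken from the estimate and its F statistic. CPM divided the reads of a gene by the library's counts over the tested genes multiplied by its TMM factor. Male 16 entered no main fit. Alternatives were limma voom (limma 3.58.1), DESeq2 1.42.0, other normalizations and filters, and each library left out.

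The members, the gene lists (53, and 2 composed after values were seen) and the naming rule were chosen with earlier results of these data known. The rule took called genes with at least 5 CPM in the higher sex and no overlap. In each direction it named the 12 with the largest difference, with genes known by number alone set aside. Of those set aside, up to 3 per direction were named in addition. It also named up to 5 called members per list, the 5 most positive and most negative interactions, and genes that check the labels. Replicates are pools of midguts, so p-values measure the spread between pools. Total counts ranged from 16630050 to 53586401.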

Additional observations from a re-analysis of the deposited data

Results flagged for a closer look

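In groups of 4 libraries, the gap of the highest or lowest library to its neighbour was set against the group's range, a test that chance passes in about 1 of 20 groups. Of 228 named genes, 20 had a Myc RNAi female that stood apart. Female 11 stood apart for Clamp (33.9 CPM), Cyp4ac1 (37.7 CPM), LysB (3.73 CPM), Mnt (41.0 CPM), Naam (8.33 CPM), Src64B (19.2 CPM) and fs(1)Yb (0.0796 CPM). Female 9 stood apart for Gapdh2 (1267 CPM), dome (69.9 CPM), fru (5.85 CPM), mle (27.6 CPM), trol (105.4 CPM) and wech (35.6 CPM). Female 12 stood apart for whe (265 CPM), lcs (208 CPM), CG16826 (360.4 CPM), Est-6 (2.97 CPM) and Ugt303A1 (74.4 CPM). Female 10 stood apart for byn (3.26 CPM) and mew (98.3 CPM).

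Among named genes, 27 had a sex difference that differed between Myc RNAi and control midguts by the test of the interaction, given here on the log2 scale. The 6 alpha-mannosidase genes had interactions of 1.66 (LManI), 1.29 (LManII), 3.24 (LManIII), 4.52 (LManIV), 2.75 (LManV) and 2.59 (LManVI). Other positive values were 3.28 for Bace, 5.12 for CG34316, 3.15 for CG31091, 1.84 for Sodh1, 1.79 for acs, 1.75 for Akr1B, 1.65 for Acbp3, 1.63 for Mdr49, 1.52 for Ugt35C1, 1.40 for GstT4, 1.33 for ATPCL, 1.20 for fbp, 1.11 for Taldo, 1.02 for Cyp4ac1 and 0.86 for Gpdh1. Negative values were -5.25 for CG12057, -3.47 for CG6296, -1.68 for CG31454, -1.66 for Zip42C.2, -1.61 for gol and -1.56 for pyr. Several were not called in many of 23 alternative fits: CG31091 in 14, CG12057 in 13, Gpdh1 in 12, Zip42C.2 in 8, fbp in 7, ATPCL and pyr in 5 each, and CG34316, Cyp4ac1 and GstT4 in 3 each. Those of acs and LManII were not called in 2, and those of Acbp3, Sodh1 and Taldo in 1.

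Male library 16, which enters no comparison, held 2498 CPM of the testis list, or 129804 reads, against 778 to 2114 reads in the Myc RNAi libraries compared.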

How the results depend on the processing

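The 580 genes called in Myc RNAi midguts (282 higher, 298 lower in females) became 914 with DESeq2 (427, 487), 1139 with the 7 Myc RNAi libraries alone (588, 551), 369 with total counts in place of TMM (226, 143) and 243 beyond 2-fold (130, 113). The interaction count of 131 became 303 with DESeq2 and 76 with total counts. With 1 library left out in turn, the calls ranged from 189 to 749 in total, from 88 to 365 higher and from 95 to 384 lower, the control calls from 834 to 1356 and the interaction calls from 40 to 173. The 7-library fit gives no control or interaction count. The other counts stayed within 1.5 times: limma voom called 604, a mean of at least 1 CPM 572, TMM from autosomes 573, median-of-ratios size factors 558, no filter 482 and male 16 kept in the fit 518. Of the main calls, 99.7% were shared with DESeq2, 89.7% with limma voom, 57.2% with total counts, 68.3% with male 16 kept, 35.2% without male 13 and 32.2% without male 15. Total counts shifted the median of all genes by 0.0102 on the log2 scale. With male 16 kept, ND-51L1 (-0.72, adjusted p = 0.661) and Obp99a (-2.60, adjusted p = 0.407) turned sign. The causes were not tested, apart from the stricter fold threshold and the loss of a library, which leave fewer calls or fewer samples by construction. No paired analysis was possible because the groups share no replicate number.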

Other observations

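A set of genes was present in 1 Myc RNAi library and nearly absent from the others. These genes were chosen after their values were seen. In female 12, whe stood at 265 CPM, lcs at 208 CPM and CG16826 at 360.4 CPM, and CG45080 (50.5 CPM), CG33109 (26.6 CPM), CG34212 (19.2 CPM), CG13947 (17.4 CPM) and CG43679 (5.03 CPM) were also carried by that library. No read of whe was counted in the other Myc RNAi females, and the 3 males together held 2. Among controls, whe was at 363.5 CPM in female 1, 342.8 CPM in male 5 and 287.0 CPM in male 7, and lcs was at 270.8, 320.5 and 343.9 CPM in the same libraries. The fitted sex differences in Myc RNAi midguts were large and not called: 11.11 for whe (adjusted p = 0.252), 9.11 for lcs (adjusted p = 0.248) and 9.92 for CG16826 (adjusted p = 0.258). The genes whe and lcs are neighbours on the X chromosome, at 21402339 to 21402772 and 21396727 to 21397316 in dm6. Outside female 12, CG42656 was carried by female 10 (5.599 CPM). Cyp6a8 was highest in male 14 (9.70 CPM) but was not absent elsewhere, at 0.337 to 1.33 CPM in the other Myc RNAi libraries.

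Further genes differed between the sexes. The X-linked CG3703 was at 2.06, 2.78, 2.01 and 3.03 CPM in Myc RNAi females and at 11.6, 15 and 12.8 CPM in Myc RNAi males (log2 difference -2.42, adjusted p = 0.000104). Of genes chosen after their values were seen, Sesn, a stress-responsive inhibitor of TOR signalling, was at 49.3, 36.1, 43.0 and 37.5 CPM in Myc RNAi females and at 19.1, 21.3 and 20.4 CPM in Myc RNAi males (1.03, adjusted p = 0.000891). Apc, a negative regulator of Wnt signalling, was at 129, 216, 150 and 213 CPM in Myc RNAi females and at 442, 342 and 406 CPM in Myc RNAi males (-1.17, adjusted p = 0.00744). AnxB9, an annexin gene, was at 174, 161, 160 and 195 CPM in Myc RNAi females and at 401, 301 and 361 CPM in Myc RNAi males (-1.04, adjusted p = 0.0018). In each of these genes the 4 females and 3 males did not overlap.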
